A study of Mus musculus with 10 samples.

Results

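All 7 TDP-43cKO libraries of the series, of either vector, were set against its 3 NC-GFP libraries, so that the comparison used all 10 libraries. The libraries were taken by their group labels alone, and no expression value entered the choice. The 4 TDP-43cKO-TDP-43mNLS libraries (cKO-mNLS) came from TDP-43flox/flox::CamKIIcre/- mice that received AAV-FLEX-TDP-43mNLS-GFP. The 3 TDP-43cKO-GFP libraries (cKO-GFP) came from mice of the same genotype that received AAV-FLEX-GFP. The 3 NC-GFP libraries came from CamKIIcre/- mice that received AAV-FLEX-GFP. The Cre driver, a viral injection and GFP were therefore shared by all groups, and by the labels the floxed Tardbp alleles set the TDP-43cKO groups apart. Any other difference between the lines of mice, such as their background, cannot be told apart from genotype here. Virus was placed in the dentate gyrus, and GFP-positive cells were sorted from brain 1 month later, each library holding a pool of 3 to 4 animals. A FLEX cassette is read only after Cre has acted, and CamKII-Cre acts mainly in excitatory neurons of the forebrain. No NC library with the TDP-43mNLS vector was analysed, so vector and genotype cannot be told apart in the step between NC-GFP and cKO-mNLS. The sources used here give neither the age of the mice nor the meaning of the abbreviation mNLS.

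TDP-43, the product of Tardbp, is an RNA-binding protein of the nucleus that acts in splicing, in the repression of cryptic exons and in RNA stability. Its loss from the nucleus is a hallmark of amyotrophic lateral sclerosis and of a form of frontotemporal dementia. The study concerns neuronal TDP-43 and myelin. Gene groups that recur are the interferon-gamma response, in which transcription factors such as IRF1 switch on large GTPases that attack intracellular pathogens, and astrocyte genes, whose products couple astrocytes through gap junctions, clear glutamate and GABA and form the perineuronal matrix.

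Libraries held 17164162 to 29204279 counts, of which mitochondrial genes took 10.9% to 16.5%. Across genes, log2 CPM (counts scaled to library size) correlated within groups at 0.912 to 0.941 in cKO-mNLS, 0.948 to 0.96 in cKO-GFP and 0.949 to 0.952 in NC-GFP. The first principal component (40% of the variance) placed the cKO-mNLS libraries apart from the other 6. The second (14.6%) placed cKO-GFP at -84.9 to -30.3 and NC-GFP at 35.9 to 71.2. Markers of cells other than CamKII neurons were abundant in each group. The 20 oligodendrocyte and myelin markers reached 6851 to 21132 summed CPM in cKO-mNLS and 11973 to 22811 in cKO-GFP, against 16711 to 23295 in NC-GFP. The 19 microglial markers reached 4607 to 10399 summed CPM in cKO-mNLS and 10769 to 15617 in cKO-GFP, against 10715 to 14060.4 in NC-GFP. The 20 excitatory and pan-neuronal markers reached 844 to 2396 summed CPM in cKO-mNLS and 262 to 376 in cKO-GFP, against 229 to 258 in NC-GFP. Neuronal markers were the lowest of these 3 sets in every group. In such mixed RNA, fewer cells of a type and less RNA per cell cannot be told apart. Because each library is a pool, p-values measure the spread between these pools.

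Tardbp (ENSMUSG00000041459.15, chr4:148612382-148627019, GRCm38) stood at 206, 218, 337 and 185 CPM in cKO-mNLS and 120.4, 122 and 108 CPM in cKO-GFP, against 143, 128 and 121 CPM in NC-GFP. The TDP-43cKO and NC-GFP ranges overlapped, and the genotype contrast did not pass its threshold (log2 change 0.35, SE 0.176, adjusted p = 0.318). Within TDP-43cKO, Tardbp was higher with the TDP-43mNLS vector (log2 difference 1.02, SE 0.196, adjusted p = 0.00642). The sources used here do not say which part of the gene is floxed or whether reads of the viral TDP-43 sequence were counted, so the count does not check the genotype labels.

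The genotype contrast is the mean of the 2 TDP-43cKO groups minus NC-GFP on the log2 scale, fitted with edgeR's quasi-likelihood test in 1 model of the 3 groups and adjusted over 20379 genes by Benjamini-Hochberg. It called 1020 genes at an adjusted p under 0.05, which is 5.01% of those tested, with 644 higher (3.16%) and 376 lower (1.85%) in TDP-43cKO. Such a mean can pass through 1 vector group alone, so the CPM ranges were also compared. In 1437 genes (7.05%) all 7 TDP-43cKO libraries lay on one side of all 3 NC-GFP libraries. Both conditions held for 322 higher genes (1.58%) and 271 lower genes (1.33%), and 3.49% and 3.56% of the tested genes did not overlap on the higher and on the lower side whether called or not. All 3 NC-GFP libraries bore on these counts. The 644 higher and 376 lower calls became 176 and 137 without NC-GFP replicate 1, 86 and 64 without NC-GFP replicate 2, and 81 and 67 without NC-GFP replicate 3. They became 321 and 201 without cKO-GFP replicate 3, and without cKO-GFP replicate 1 the higher genes with no overlap numbered 548. A fit that took the 7 TDP-43cKO libraries as 1 group called 24 higher and 39 lower genes, and of the 63 called genes that the naming rule took it kept 16 and lost 47. The rule took these 63 only if they did not overlap, so their separation, restated below, is a condition of choice and no further support.

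The 322 higher genes had a median log2 fold change of 2.12, with a median of 2.91 in cKO-mNLS and 1.40 in cKO-GFP, each against the same NC-GFP libraries. Of these, 149 (46.3%) lay higher in cKO-mNLS than cKO-GFP by the vector contrast, 8 (2.48%) were lower and 165 (51.2%) did not pass. Over all tested genes, 16.1% passed the vector contrast, 8.93% higher and 7.13% lower in cKO-mNLS. The 271 lower genes had a median of -1.22, with -1.04 in cKO-mNLS and -1.39 in cKO-GFP, and 219 of them (80.8%) did not pass the vector contrast. Protein-coding genes made up 306 of the higher genes (95.0%) and 203 of the lower genes (74.9%), against 74.6% of all tested genes. The lower genes included 41 entries of the type TEC, gene models that await experimental evidence (15.1%), a class that made up 7.86% of tested genes. Among the 322 higher calls whose ranges overlapped, 288 (89.4%) lay higher in cKO-mNLS than cKO-GFP, with a median of 3.90 in cKO-mNLS and 0.91 in cKO-GFP. Median gene span was 26330 bp in the higher genes without overlap and 27014 bp in the lower ones, against 15928 bp over all tested genes.

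**Figure D1:**
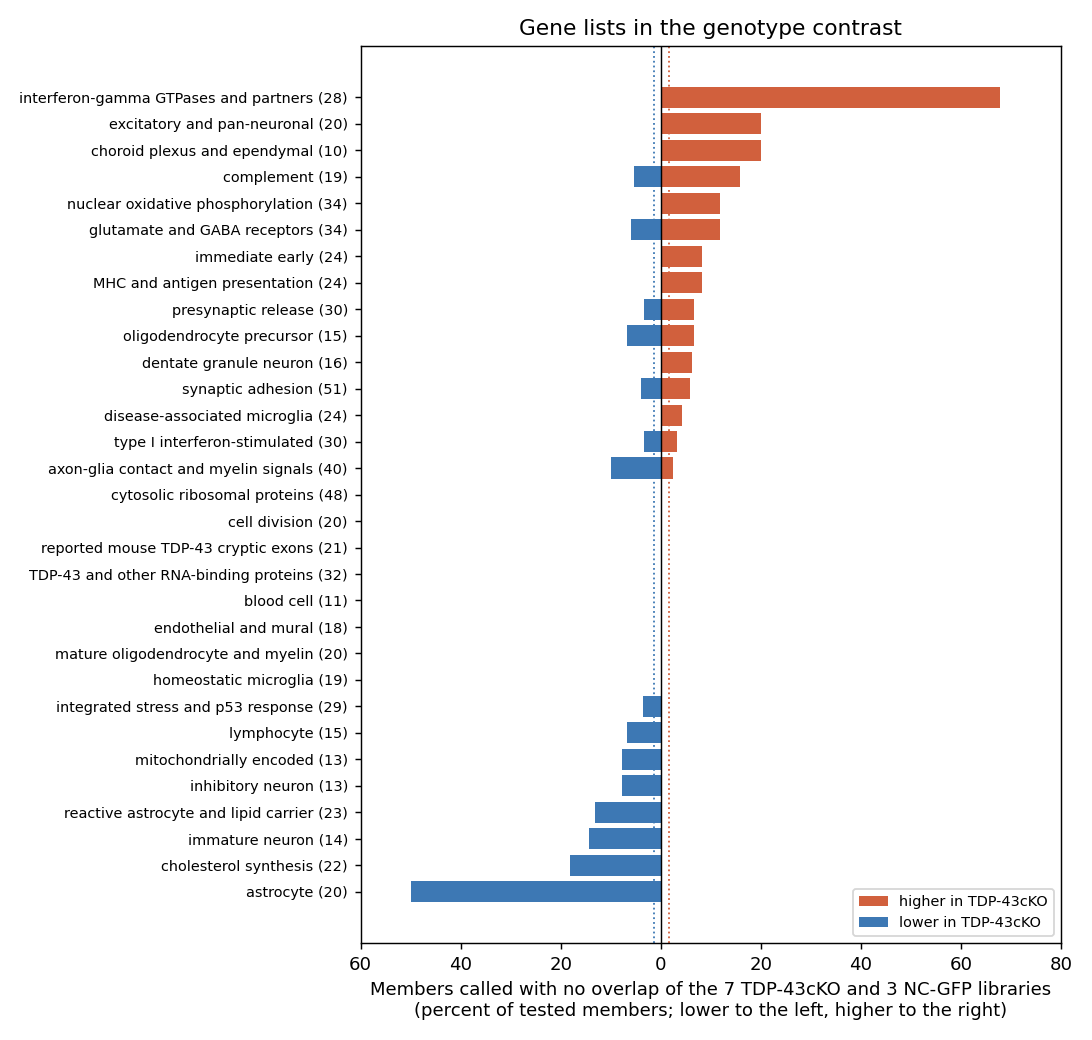
Gene lists by the share of their tested members (percent, horizontal axis) that were called with no overlap between the 7 TDP-43cKO and the 3 NC-GFP libraries, lower to the left in blue and higher to the right in orange. Dotted lines give the same shares over all tested genes (1.58% higher, 1.33% lower). The interferon-gamma list has 19 of its 28 tested members to the right and the astrocyte list 10 of its 20 to the left.

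Of the 31 lists, interferon-gamma response genes had the most higher calls. List members were chosen with earlier results of these data known, so neither this rank nor the counts are independent support. Over all tested genes 3.16% rose, 1.85% fell and 1.58% rose with no overlap. Of the 28 tested members of this list, 21 rose and 1 fell, and 19 rose with no overlap. The median log2 fold change was 1.18 (0.90 in cKO-mNLS and 1.40 in cKO-GFP), against 0.02 over all tested genes. Summed over the list, the level was 6729, 7077, 5115 and 5059 summed CPM in cKO-mNLS and 8984, 5771 and 7938 CPM in cKO-GFP, against 2943, 3544 and 3051 CPM in NC-GFP. All 7 TDP-43cKO sums lay above the highest NC-GFP sum. None of the 28 members lay higher in cKO-mNLS than cKO-GFP by the vector contrast in edgeR (0 at an unadjusted p under 0.05). In that contrast 6 were lower, as were 7.13% of all tested genes. The number that rose was 10, 12 and 7 without NC-GFP replicate 1, 2 and 3, and 12 in a fit with the 7 TDP-43cKO libraries as 1 group.

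The effector genes of the list are GTPases that coat and rupture the vacuoles of intracellular parasites. Gbp10, a guanylate-binding protein (chr5:105215699-105239533), stood at 288, 268, 199 and 132 CPM in cKO-mNLS and 251, 172 and 198 CPM in cKO-GFP, against 54.6, 66.1 and 42.8 CPM in NC-GFP (log2 change 1.97, SE 0.258, adjusted p = 0.00357). Tgtp1, an immunity-related GTPase (chr11:48985327-48994172), stood at 273, 306, 194 and 117 CPM in cKO-mNLS and 219.7, 199.9 and 229 CPM in cKO-GFP, against 52.9, 63.7 and 48.9 CPM in NC-GFP (log2 change 1.99, SE 0.267, adjusted p = 0.00395). In both genes, as the naming rule required, the lowest TDP-43cKO library, cKO-mNLS replicate 4, lay above the highest NC-GFP library. The difference between the 2 vector groups did not pass (adjusted p = 0.834 for Gbp10 and 0.941 for Tgtp1). The other GTPases printed in this and the next sentences were chosen after their values were seen. Gbp2 had 367 to 999 CPM over the 7 TDP-43cKO libraries (median 704), against 181, 258 and 179.6 CPM in NC-GFP (log2 change 1.71, SE 0.28, adjusted p = 0.00762). Gbp3 had 225 to 359 CPM over the 7 TDP-43cKO libraries (median 275), against 130.1, 137 and 121 CPM in NC-GFP (log2 change 1.14, SE 0.164, adjusted p = 0.00494). Gbp6 had 304 to 484 CPM over the 7 TDP-43cKO libraries (median 410.0), against 169, 186 and 145 CPM in NC-GFP (log2 change 1.27, SE 0.188, adjusted p = 0.00538). These are members of 2 gene clusters, on chromosome 3 and on chromosome 5, and each separated the genotypes. Ifi47, another immunity-related GTPase, had 94.4 to 165 CPM over the 7 TDP-43cKO libraries (median 131), against 50.1, 47.2 and 47.9 CPM in NC-GFP (log2 change 1.37, SE 0.196, adjusted p = 0.00492). Irgm1, a regulator of the other immunity-related GTPases, had 312 to 474 CPM over the 7 TDP-43cKO libraries (median 356), against 173, 204 and 206 CPM in NC-GFP (log2 change 0.92, SE 0.153, adjusted p = 0.00809). Igtp had 362 to 599 CPM over the 7 TDP-43cKO libraries (median 404), against 199, 263 and 212 CPM in NC-GFP (log2 change 0.94, SE 0.178, adjusted p = 0.0139). All 3 of these chromosome 11 genes rose with no overlap. Near-identical copies (Tgtp1 and Tgtp2, the guanylate-binding proteins) can share reads. So can genes whose annotated spans overlap (Igtp with Irgm2, Gbp4 with Gbp8 and Gbp9, Tgtp1 with Gm12185). The level of a single member is therefore less certain than that of the group.

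Genes upstream of and beside the GTPases moved less evenly. Batf2, a transcription factor induced by interferon-gamma, stood at 17, 20.6, 15.6 and 18.1 CPM in cKO-mNLS and 25.6, 19.9 and 26 CPM in cKO-GFP, against 7.69, 9.58 and 6.55 CPM in NC-GFP (log2 change 1.37, SE 0.187, adjusted p = 0.00417). Irf1, the transcription factor that carries the signal on, had 119 to 319 CPM over the 7 TDP-43cKO libraries (median 221), against 79.3, 111 and 97.7 CPM in NC-GFP (log2 change 1.18, SE 0.224, adjusted p = 0.0142) and was lower in cKO-mNLS than in cKO-GFP (-0.76, SE 0.23, adjusted p = 0.0441). Cd274, the checkpoint ligand PD-L1, had 226 to 418 CPM over the 7 TDP-43cKO libraries (median 300.1), against 118, 139 and 126 CPM in NC-GFP (log2 change 1.30, SE 0.199, adjusted p = 0.00639). Socs1, the feedback inhibitor of the receptor kinases, passed with overlapping ranges (log2 change 1.41, SE 0.334, adjusted p = 0.0351). Ifngr1, a receptor chain, was the member that fell, at 77.9, 70.4, 90.5 and 91.2 CPM in cKO-mNLS and 171, 131 and 187 CPM in cKO-GFP, against 156, 186 and 180.5 CPM in NC-GFP. Its log2 difference from NC-GFP was -1.08 in cKO-mNLS (adjusted p = 0.00142) and -0.09 in cKO-GFP (adjusted p = 0.829), contrasts that share the NC-GFP libraries and in which 11.5% and 1.63% of all tested genes passed. The chemokine genes Cxcl9 and Cxcl10 did not pass (0.98, adjusted p = 0.252 and -0.07, adjusted p = 0.949). Irf1, Cd274, Socs1, Ifngr1, Cxcl9 and Cxcl10 were chosen after their values were seen.

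Serping1, the inhibitor of the first complement protease and a gene induced by interferon-gamma (chr2:84765387-84775444), had the smallest p of this list. It stood at 135, 141, 93.7 and 50.4 CPM in cKO-mNLS and 82.9, 70.5 and 75 CPM in cKO-GFP, against 13.5, 17.4 and 13 CPM in NC-GFP. As the naming rule required, every TDP-43cKO library held more than the highest NC-GFP library, and the contrast passed (log2 change 2.61, SE 0.302, adjusted p = 0.00228). It was kept with each library left out in turn, as were the calls of Gbp10, Tgtp1, Batf2, Ifi47, Gbp3 and Gbp6. The calls of the 14 other members that rose were lost without at least 1 library. Of those named above, Cd274 was lost on leaving out NC-GFP replicate 3 (adjusted p then 0.0521), Gbp2 on leaving out NC-GFP replicate 1 or 3 (adjusted p then 0.0514 and 0.0626), Irgm1 on leaving out NC-GFP replicate 1, 2 or 3 (adjusted p then 0.0536 to 0.0543), Igtp on leaving out NC-GFP replicate 1, 2 or 3 (adjusted p then 0.0525 to 0.0992), Irf1 on leaving out NC-GFP replicate 1, 2 or 3 (adjusted p then 0.0582 to 0.088) and Socs1 on leaving out cKO-mNLS replicate 2, cKO-GFP replicate 1 or 3 or NC-GFP replicate 1, 2 or 3 (adjusted p then 0.0601 to 0.185). The lower call of Ifngr1 was lost on leaving out NC-GFP replicate 1, 2 or 3 (adjusted p then 0.065 to 0.163).

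**Figure D2:**
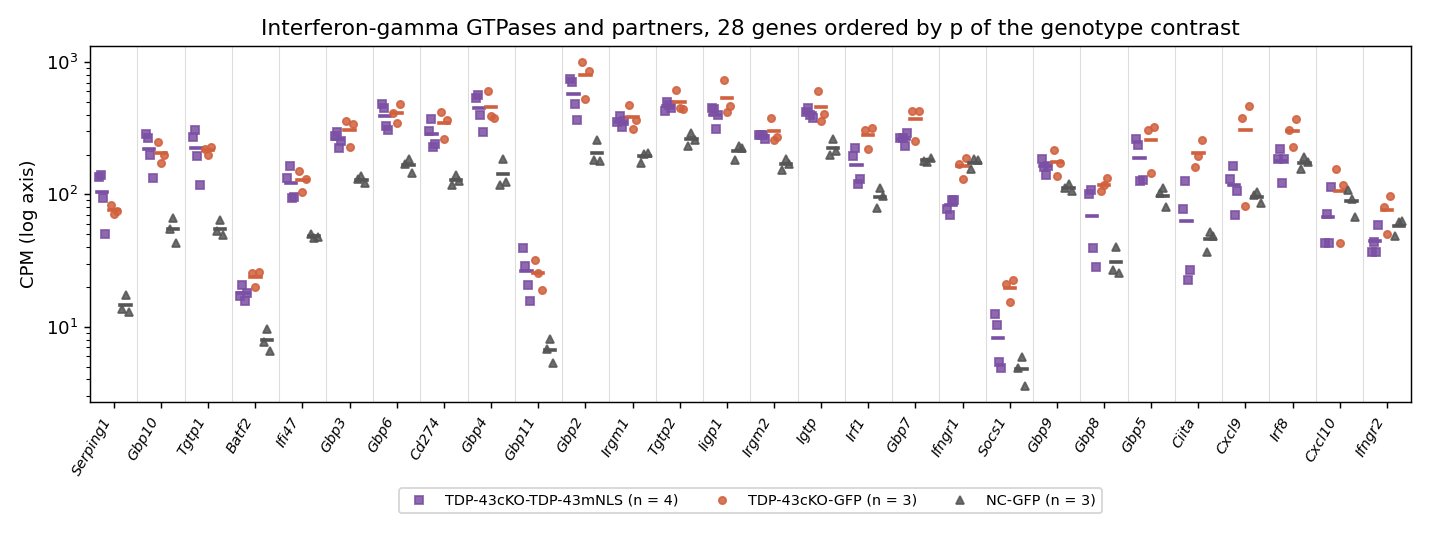
CPM (log axis) of the 28 tested interferon-gamma genes in each library, ordered by the p of the genotype contrast, with squares for cKO-mNLS (n = 4), circles for cKO-GFP (n = 3), triangles for NC-GFP (n = 3) and bars for group means. In 20 genes all TDP-43cKO points lie above all NC-GFP points, and in Ifngr1 the cKO-mNLS points lie below the others.

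Promoter sequence was read for the list because its members moved together. RefSeq promoters (GRCm38.p6, 250 bases before to 50 after the start) matched 18 of the 28 members. A pair of motifs was searched on both strands, the interferon-gamma element GAS (TTCNNNGAA) and the IRF site ISRE (GAAANNGAAA, or TTTCNNTTTC on the other strand). At least 1 of them was present in 13 of the 18 (72.2%), with GAS in 8 (44.4%) and ISRE in 11 (61.1%). Over the promoters of 27025 genes of the same length the shares were 12.9%, 9.55% and 3.99%. Of the genes that did not overlap, 17.2% of 233 matched higher genes and 13.5% of 171 matched lower genes held either motif. In the astrocyte list 6 of 17 (35.3%) did. The list was written as interferon-gamma response genes, so its larger share describes the choice of genes and is no result of these libraries. A match is a description of the sequence and was not tested as a binding site. The 120 bases before the start are shown for members that rose, chosen because their motifs lie there, 5′ to 3′ with motif matches in capitals. They lie at chr3:142620543-142620662 (plus strand) for Gbp2, chr3:142559924-142560043 (plus strand) for Gbp3, chr11:53769894-53770013 (plus strand) for Irf1, chr11:48871421-48871540 (minus strand) for Irgm1, chr11:58214857-58214976 (plus strand) for Irgm2, chr11:58199436-58199555 (plus strand) for Igtp and chr11:48992247-48992366 (minus strand) for Tgtp1.
Gbp2: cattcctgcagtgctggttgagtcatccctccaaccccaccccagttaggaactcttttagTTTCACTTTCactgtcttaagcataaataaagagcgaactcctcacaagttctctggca
Gbp3: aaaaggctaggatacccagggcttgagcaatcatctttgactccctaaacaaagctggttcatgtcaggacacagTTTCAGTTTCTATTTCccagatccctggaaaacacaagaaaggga
Irf1: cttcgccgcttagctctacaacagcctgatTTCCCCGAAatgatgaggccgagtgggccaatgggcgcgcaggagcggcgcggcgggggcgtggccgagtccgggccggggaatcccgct
Irgm1: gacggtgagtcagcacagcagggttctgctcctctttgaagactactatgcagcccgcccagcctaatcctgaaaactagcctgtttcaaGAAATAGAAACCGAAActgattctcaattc
Irgm2: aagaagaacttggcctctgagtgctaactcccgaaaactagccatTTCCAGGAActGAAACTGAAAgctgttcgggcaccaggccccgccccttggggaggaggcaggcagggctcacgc
Igtp: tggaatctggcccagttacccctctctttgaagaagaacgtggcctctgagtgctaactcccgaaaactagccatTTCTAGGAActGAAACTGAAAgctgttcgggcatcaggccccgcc
Tgtp1: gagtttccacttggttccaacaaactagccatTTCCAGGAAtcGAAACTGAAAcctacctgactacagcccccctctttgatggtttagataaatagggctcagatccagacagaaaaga
In Irgm2, Igtp and Tgtp1 a GAS match was followed by an ISRE match with 2 bases between them. In Gbp3 and Irgm1 overlapping ISRE matches were present, and Irf1 held GAS alone. Gbp3 and Irf1 each had another RefSeq start, not shown, whose promoter held neither motif.

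Other immune lists held fewer calls. Over all tested genes 3.16% rose and 1.85% fell. Of 30 type I interferon genes 1 rose and 1 fell, which is near those shares, with a median of 0.05. Ifi44 had 50.2 to 79.7 CPM over the 7 TDP-43cKO libraries (median 62.5), against 43.4, 31.1 and 25.3 CPM in NC-GFP (log2 change 0.88, SE 0.197, adjusted p = 0.0277), a call lost on leaving out cKO-GFP replicate 3 or NC-GFP replicate 2 or 3 (adjusted p then 0.0652 to 0.159). Oas2, which makes the activator of RNase L, had 54.8 to 84.3 CPM over the 7 TDP-43cKO libraries (median 61.2), against 127, 103 and 116 CPM in NC-GFP (log2 change -0.85, SE 0.146, adjusted p = 0.00954), a call lost on leaving out NC-GFP replicate 1 or 3 (adjusted p then 0.0551 and 0.0626). These 2 members were named because they did not overlap, and they moved in opposite directions. Of 24 MHC and antigen presentation genes, Tap2 and H2-T23 rose in edgeR, while 12 were higher at an unadjusted p under 0.05 and DESeq2 and voom called 9 each. The fold change was above 0 in 22 of the 24, and the list median was 0.56 (0.07 in cKO-mNLS and 0.97 in cKO-GFP). By the vector contrast 17 members were lower in cKO-mNLS than in cKO-GFP, as were 7.13% of all tested genes. Tap2, a peptide transporter, had 96.4 to 168 CPM over the 7 TDP-43cKO libraries (median 105), against 63.8, 84.3 and 73.4 CPM in NC-GFP (log2 change 0.73, SE 0.146, adjusted p = 0.0176), and H2-T23, a nonclassical class I molecule, had 243 to 500.2 CPM over the 7 TDP-43cKO libraries (median 314), against 188, 221 and 220.1 CPM in NC-GFP (log2 change 0.69, SE 0.165, adjusted p = 0.0355). The Tap2 call was lost on leaving out NC-GFP replicate 1, 2 or 3 (adjusted p then 0.0577 to 0.106) and the H2-T23 call on leaving out cKO-mNLS replicate 2, cKO-GFP replicate 1 or 3 or NC-GFP replicate 1, 2 or 3 (adjusted p then 0.0566 to 0.156). Summed over the list, the level was 9761 to 15803 summed CPM in cKO-mNLS and 22169 to 36401 in cKO-GFP, against 12123 to 15586 in NC-GFP, so that all cKO-GFP sums lay above all NC-GFP sums and those of cKO-mNLS overlapped them. Without cKO-GFP replicate 2 the list had 8 higher calls, without any 1 of the NC-GFP libraries 0, and without cKO-GFP replicate 1, cKO-GFP replicate 3 or cKO-mNLS replicate 2 it had 1. Among 19 complement genes 3 rose and 1 fell. Cd59a, which blocks the membrane attack complex, had 12.5 to 39.1 CPM over the 7 TDP-43cKO libraries (median 20.8), against 5.93, 4.52 and 6.72 CPM in NC-GFP (log2 change 1.95, SE 0.283, adjusted p = 0.00494).

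None of the homeostatic microglial or lymphocyte markers rose in edgeR, DESeq2 or voom, and 0 were higher at an unadjusted p under 0.05. Of 19 homeostatic microglial markers 2 fell, with a median of -0.67 (-1.09 in cKO-mNLS and -0.16 in cKO-GFP). By the vector contrast 10 were lower in cKO-mNLS than in cKO-GFP. Over all tested genes 1.85% fell in the genotype contrast and 7.13% were lower in cKO-mNLS than in cKO-GFP. Tmem119, a microglial surface protein, stood at 54.2, 47.4, 68.2 and 82.2 CPM in cKO-mNLS and 223, 118 and 139 CPM in cKO-GFP, against 172, 256 and 242 CPM in NC-GFP (log2 change -1.15, SE 0.217, adjusted p = 0.014), and Selplg passed as well (log2 change -0.82, SE 0.16, adjusted p = 0.0157). Both were chosen after their values were seen, and both overlapped between the genotypes. The Tmem119 call was lost on leaving out NC-GFP replicate 2 or 3 (adjusted p then 0.0795 and 0.0894) and the Selplg call on leaving out NC-GFP replicate 2 or 3 (adjusted p then 0.0852 and 0.0991). Without cKO-mNLS replicate 2, cKO-mNLS replicate 4 or cKO-GFP replicate 1 the lower calls of the list numbered 5. Of 15 lymphocyte markers 1 fell. Lymphocyte markers summed to 149 to 266 summed CPM in cKO-mNLS and 365 to 997 in cKO-GFP, against 184 to 283 in NC-GFP. Of 24 disease-associated microglia genes 1 rose, Gpnmb, with a list median of 0.19, where 3.16% of all tested genes rose. Gpnmb, a gene of lipid-laden and disease-associated microglia, had 52.3 to 193 CPM over the 7 TDP-43cKO libraries (median 119), against 23.6, 19.4 and 41.7 CPM in NC-GFP (log2 change 2.15, SE 0.46, adjusted p = 0.0253). Its call was lost on leaving out cKO-GFP replicate 3 or NC-GFP replicate 1, 2 or 3 (adjusted p then 0.0663 to 0.126). Mertk, a receptor for the engulfment of dying cells, came from the reactive astrocyte and lipid carrier list. It had 114 to 259 CPM over the 7 TDP-43cKO libraries (median 200.3), against 270.1, 363 and 366 CPM in NC-GFP (log2 change -0.76, SE 0.176, adjusted p = 0.0319). Its call was lost on leaving out cKO-GFP replicate 2 or 3 or NC-GFP replicate 2 or 3 (adjusted p then 0.0503 to 0.173).

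Astrocyte genes were lower in TDP-43cKO of either vector. Of the 20 markers 12 fell, 10 of them with no overlap, against 1.85% and 1.33% of all tested genes. None rose in edgeR, DESeq2 or voom, with 1 higher at an unadjusted p under 0.05. The median log2 fold change was -1.11 (-0.85 in cKO-mNLS and -1.55 in cKO-GFP). Summed over the list, the level was 6480.1, 3234, 5725 and 4207 summed CPM in cKO-mNLS and 2742, 3826 and 3224 CPM in cKO-GFP, against 7048, 7850.0 and 7818 CPM in NC-GFP. All 7 TDP-43cKO sums lay below the lowest NC-GFP sum, and cKO-mNLS replicates 1 and 3 came nearest. Of the 20 members 1, Slc1a2, passed the vector contrast (higher in cKO-mNLS, 1.01, SE 0.303, adjusted p = 0.0418), where 8.93% of all tested genes were higher. At an unadjusted p under 0.05 in that contrast, 6 members were higher in cKO-mNLS and 0 lower. The number that fell in the genotype contrast was 7, 6 and 6 without NC-GFP replicate 1, 2 and 3. It was 5 in the fit with the 7 TDP-43cKO libraries as 1 group. Without cKO-mNLS replicate 1 the number with no overlap was 17.

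Both gap junction genes fell. Gja1, which encodes connexin 43 (chr10:56377330-56402513), stood at 217, 118, 211 and 119 CPM in cKO-mNLS and 114, 129.7 and 117 CPM in cKO-GFP, against 406, 493 and 472 CPM in NC-GFP (log2 change -1.69, SE 0.194, adjusted p = 0.00213). Gjb6, which encodes connexin 30, stood at 25.7, 14.1, 27.5 and 14.4 CPM in cKO-mNLS and 13.2, 18.6 and 14.8 CPM in cKO-GFP, against 50.6, 67.1 and 64.1 CPM in NC-GFP (log2 change -1.76, SE 0.218, adjusted p = 0.00304). In each, as the naming rule required, the lowest control, NC-GFP replicate 1, lay above the highest TDP-43cKO library. F3, tissue factor, stood at 44.4, 22.6, 52.6 and 31 CPM in cKO-mNLS and 24.9, 29.2 and 23 CPM in cKO-GFP, against 83.5, 109.5 and 121 CPM in NC-GFP (log2 change -1.75, SE 0.217, adjusted p = 0.00308). The remaining members named here were chosen after their values were seen. Slc6a11, the GABA transporter GAT3, had 32.6 to 109.7 CPM over the 7 TDP-43cKO libraries (median 88.3), against 250.4, 413 and 357 CPM in NC-GFP (log2 change -2.10, SE 0.309, adjusted p = 0.00564). Slc1a3, the glutamate transporter GLAST, had 249 to 629 CPM over the 7 TDP-43cKO libraries (median 316), against 633, 779 and 676 CPM in NC-GFP (log2 change -0.99, SE 0.202, adjusted p = 0.0187), with cKO-mNLS replicate 1 just below the lowest NC-GFP library. Slc1a2, the glutamate transporter GLT-1, had 474 to 2024 CPM over the 7 TDP-43cKO libraries (median 852), against 1880.1, 2112 and 2192 CPM in NC-GFP (log2 change -1.11, SE 0.257, adjusted p = 0.0325) and overlapped. The calls of Gja1, Gjb6, F3, Gpc5, Slc6a11 and Ntsr2 were kept with each library left out in turn. Those of the 6 other members that fell were lost without at least 1 library, Slc1a3 on leaving out NC-GFP replicate 1, 2 or 3 (adjusted p then 0.0607 to 0.109) and Slc1a2 on leaving out cKO-GFP replicate 1 or 3 or NC-GFP replicate 1, 2 or 3 (adjusted p then 0.0557 to 0.147).

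Not every astrocyte marker fell. Gfap, the intermediate filament of reactive astrocytes, stood at 562, 187, 109 and 78.3 CPM in cKO-mNLS and 24.9, 92.1 and 100.2 CPM in cKO-GFP, against 50.6, 37.2 and 43.5 CPM in NC-GFP and did not pass (log2 change 1.57, SE 0.654, adjusted p = 0.224). Aqp4, the water channel of astrocyte end feet, had 46.6 to 244 CPM over the 7 TDP-43cKO libraries (median 76.5), against 166, 200.1 and 194 CPM in NC-GFP and did not pass (log2 change -0.98, SE 0.325, adjusted p = 0.118). Gfap and Aqp4 were chosen after their values were seen. Of 23 reactive astrocyte and lipid carrier genes 4 fell in edgeR, as did 1.85% of all tested genes, and none rose. At an unadjusted p under 0.05, 2 were higher, and 1 was called higher by DESeq2 and 0 by voom. The 4 lower calls became 2, 1 and 1 without NC-GFP replicate 1, 2 and 3, 1 without cKO-GFP replicate 2 or 3, and 2 without cKO-mNLS replicate 2 or 4. Among them was Clcf1, a cytokine, at 4.47 to 7.8 CPM over the 7 TDP-43cKO libraries (median 6.19), against 10.4, 10.8 and 12 CPM in NC-GFP (log2 change -0.87, SE 0.216, adjusted p = 0.0399), whose call was lost on leaving out cKO-mNLS replicate 2 or 4, cKO-GFP replicate 1, 2 or 3 or NC-GFP replicate 1, 2 or 3 (adjusted p then 0.0539 to 0.207).

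**Figure D3:**
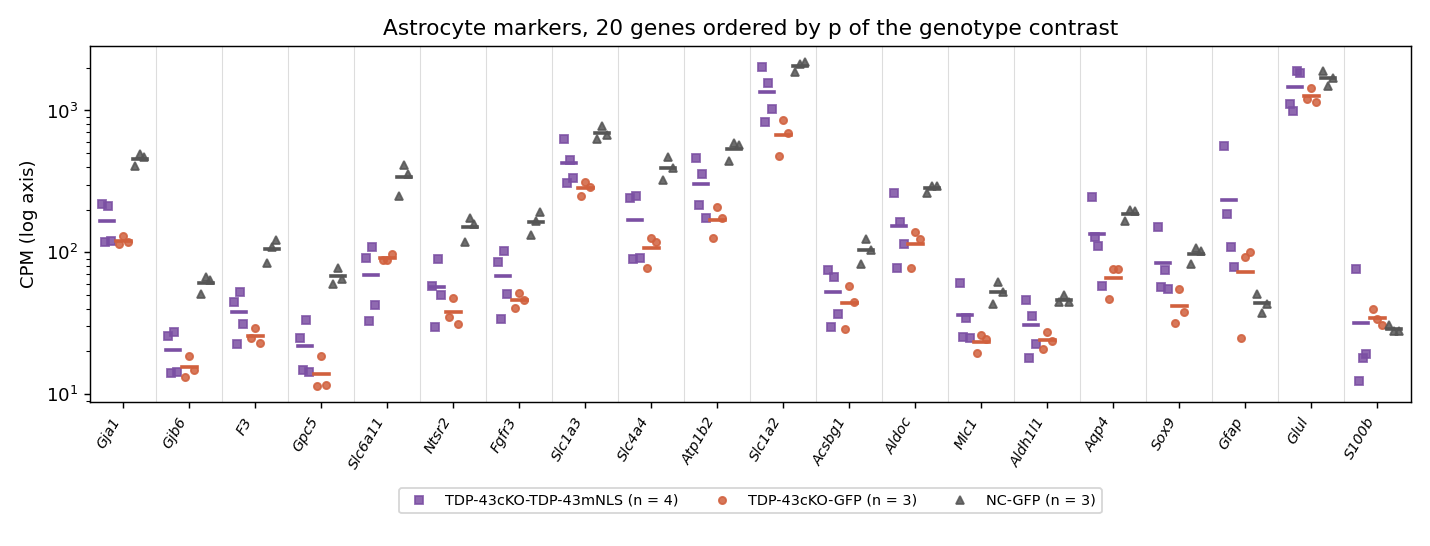
CPM (log axis) of the 20 astrocyte markers in each library, ordered by the p of the genotype contrast, with squares for cKO-mNLS (n = 4), circles for cKO-GFP (n = 3), triangles for NC-GFP (n = 3) and bars for group means. From Gja1 to Slc4a4 all TDP-43cKO points lie below all NC-GFP points, while Gfap and S100b, at the right, overlap.

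The lower genes of smallest p over the whole table included Fut9. Fut9, the fucosyltransferase that makes the Lewis x sugar (chr4:25609332-25800244), stood at 48.6, 62.6, 48 and 40.4 CPM in cKO-mNLS and 13.5, 14.2 and 14.5 CPM in cKO-GFP, against 65.1, 66 and 69.6 CPM in NC-GFP (log2 change -1.34, SE 0.13, adjusted p = 0.00164). It lay higher in cKO-mNLS than cKO-GFP (1.83, SE 0.159, adjusted p = 0.00143), and all 7 TDP-43cKO libraries stayed below NC-GFP. Mfge8, a bridge between phosphatidylserine and phagocytes, stood at 94.4, 64.6, 93.7 and 93.6 CPM in cKO-mNLS and 46.8, 61.8 and 61.5 CPM in cKO-GFP, against 174, 188 and 189.5 CPM in NC-GFP (log2 change -1.39, SE 0.139, adjusted p = 0.00175). Ednrb, the endothelin B receptor, stood at 49.3, 25.1, 36.3 and 33.7 CPM in cKO-mNLS and 29.6, 29.4 and 29.7 CPM in cKO-GFP, against 89.1, 108 and 98.1 CPM in NC-GFP (log2 change -1.59, SE 0.164, adjusted p = 0.00176). The 3 cKO-GFP libraries differed by less than 1 CPM at Ednrb, and every TDP-43cKO library lay well under the 3 controls. Slc7a11, the cystine and glutamate exchanger, had 25.5 to 64.5 CPM over the 7 TDP-43cKO libraries (median 40.3), against 107, 103 and 107 CPM in NC-GFP (log2 change -1.36, SE 0.145, adjusted p = 0.00176). Slc1a4, a transporter of serine and other neutral amino acids, had 11.4 to 24.7 CPM over the 7 TDP-43cKO libraries (median 18.7), against 44.2, 57.8 and 55 CPM in NC-GFP (log2 change -1.53, SE 0.165, adjusted p = 0.00176). Gpr37l1, an orphan receptor of glia, had 43.1 to 79.6 CPM over the 7 TDP-43cKO libraries (median 47.3), against 128, 198 and 166 CPM in NC-GFP (log2 change -1.66, SE 0.186, adjusted p = 0.00213). In Slc7a11, Slc1a4 and Gpr37l1 all 7 TDP-43cKO libraries lay below all 3 controls, which the naming rule required of every gene of this rank. S1pr1, a receptor for sphingosine 1-phosphate, had 68.8 to 139 CPM over the 7 TDP-43cKO libraries (median 74.1), against 221, 282 and 265 CPM in NC-GFP (log2 change -1.49, SE 0.173, adjusted p = 0.00213). The other lower genes of this rank were Fam20a, a pseudokinase of the secretory pathway (-1.76, adjusted p = 0.00176), and Cspg5 and Slitrk2, described next. In the fit with the 7 TDP-43cKO libraries as 1 group the calls of Fut9, Slc7a11 and S1pr1 were lost (adjusted p then 0.36, 0.0558 and 0.0549).

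Genes of axon-glia contact moved in both directions. Over all tested genes 1.85% fell and 3.16% rose. Of 40 axon-glia contact and myelin signal genes 4 fell and 6 rose, with a median of -0.07. The 4 that fell did so with no overlap. Cspg5, which encodes neuroglycan C, stood at 69, 71.6, 86.4 and 66.2 CPM in cKO-mNLS and 29.7, 42.6 and 33.7 CPM in cKO-GFP, against 102, 134 and 121 CPM in NC-GFP (log2 change -1.22, SE 0.138, adjusted p = 0.00213). Ncan, which encodes neurocan, had 25.7 to 65.6 CPM over the 7 TDP-43cKO libraries (median 49.4), against 89.9, 84.8 and 102 CPM in NC-GFP (log2 change -1.01, SE 0.16, adjusted p = 0.00702), a call lost on leaving out NC-GFP replicate 3 (adjusted p then 0.0569). Bcan and Jam2 were the others. The 4 lower calls became 2 without NC-GFP replicate 2 and 1 without NC-GFP replicate 3, and the 6 higher ones became 1 without any 1 of the NC-GFP libraries and 3 without cKO-GFP replicate 2, cKO-GFP replicate 3 or cKO-mNLS replicate 3. Ptprz1, a receptor phosphatase of glial precursors, had 100.4 to 277 CPM over the 7 TDP-43cKO libraries (median 136), against 368, 417 and 455 CPM in NC-GFP (log2 change -1.50, SE 0.219, adjusted p = 0.00523). Tnr, which encodes tenascin-R, moved the other way, at 49.9, 89.9, 76.4 and 60.4 CPM in cKO-mNLS and 114, 83.1 and 85.3 CPM in cKO-GFP, against 21.3, 6.05 and 17.4 CPM in NC-GFP (log2 change 2.44, SE 0.359, adjusted p = 0.00571). Tnr had no overlap, and NC-GFP replicate 2 held the lowest level. Tnr and Ptprz1 were the 2 oligodendrocyte precursor markers of 15 that passed. None of the 20 mature oligodendrocyte and myelin markers passed an adjusted p of 0.05 in edgeR, and their median was -0.33. At an unadjusted p under 0.05 there were 0 as well, and DESeq2 and voom called 0. The fold change was below 0 in all 20 myelin markers, as in 9870 of the 20379 tested genes. Their median was -0.48 in cKO-mNLS and -0.18 in cKO-GFP.

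Of 51 synaptic adhesion genes 9 rose and 6 fell, against 3.16% and 1.85% of all tested genes. The median was 0.02 (0.67 in cKO-mNLS and -0.39 in cKO-GFP), and 40 members lay higher in cKO-mNLS than cKO-GFP, where 8.93% of all tested genes were. Those that fell included Slitrk2, Lsamp, Lgi1, Flrt1 and Ntm. Slitrk2, a postsynaptic adhesion protein, stood at 19.1, 18.4, 31.3 and 19 CPM in cKO-mNLS and 13.4, 10.8 and 10.7 CPM in cKO-GFP, against 40.4, 49.1 and 62.8 CPM in NC-GFP (log2 change -1.67, SE 0.193, adjusted p = 0.00213). Lsamp, an adhesion protein of limbic neurons, stood at 103, 97.2, 91.9 and 55.6 CPM in cKO-mNLS and 41.6, 46.7 and 44.5 CPM in cKO-GFP, against 115, 125 and 138 CPM in NC-GFP (log2 change -1.02, SE 0.163, adjusted p = 0.00702), a call lost on leaving out NC-GFP replicate 2 or 3 (adjusted p then 0.0517 and 0.0563). At Lsamp the cKO-mNLS libraries lay between cKO-GFP and NC-GFP (0.97, SE 0.192, adjusted p = 0.00709 for cKO-mNLS over cKO-GFP). Clstn3, a postsynaptic adhesion protein, rose in both groups and stood at 19.2, 43.4, 31.5 and 21.4 CPM in cKO-mNLS and 1.97, 4.79 and 3.43 CPM in cKO-GFP, against 0.501, 0.766 and 1.07 CPM in NC-GFP (log2 change 3.68, SE 0.421, adjusted p = 0.00213). Slitrk4 had 0.63 to 18.8 CPM over the 7 TDP-43cKO libraries (median 6.15), against 0.251, 0.345 and 0.226 CPM in NC-GFP (log2 change 3.40, SE 0.525, adjusted p = 0.00645). Its NC-GFP levels were low, so the size of that change is uncertain. The 6 lower calls became 3, 1 and 1 without NC-GFP replicate 1, 2 and 3, and the 9 higher ones became 2, 3 and 2. Without cKO-GFP replicate 2 and replicate 3 the higher calls numbered 5 and 4. In the fit with the 7 TDP-43cKO libraries as 1 group, the calls of Slitrk2, Lsamp, Clstn3 and Slitrk4 were lost (adjusted p then 0.0572 to 0.206).

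Neuronal genes rose in the genotype contrast, and their levels in cKO-mNLS lay far above those in cKO-GFP. Of the 20 excitatory and pan-neuronal markers 12 rose, 4 of them with no overlap, against 3.16% and 1.58% of all tested genes. In the vector contrast 16 lay higher in cKO-mNLS than cKO-GFP, as did 8.93% of all tested genes. The median was 2.56, with 4.06 in cKO-mNLS and 0.99 in cKO-GFP. Summed over the list, the level was 1075, 2396, 1501 and 844 summed CPM in cKO-mNLS and 262, 376 and 311 CPM in cKO-GFP, against 254, 258 and 229 CPM in NC-GFP. All 7 TDP-43cKO sums lay above NC-GFP, but cKO-GFP replicate 1 exceeded the highest control by only a few CPM. The 12 higher calls became 6, 5 and 2 without NC-GFP replicate 1, 2 and 3. In the fit with the 7 TDP-43cKO libraries as 1 group only Tubb3 of these was called, and the lists of receptors, presynaptic release, synaptic adhesion, dentate granule neurons, axon-glia contact and choroid plexus had 0 higher calls. Without cKO-GFP replicate 1 the number with no overlap was 12, and without NC-GFP replicate 3 it was 2.

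Nrgn, the calmodulin-binding protein neurogranin, stood at 59.8, 226, 139.5 and 74.8 CPM in cKO-mNLS and 5.27, 14.5 and 11.3 CPM in cKO-GFP, against 2.21, 2.8 and 1.07 CPM in NC-GFP (log2 change 4.12, SE 0.559, adjusted p = 0.00462). Camk2b, a subunit of the CaM kinase of synapses, stood at 67.7, 203, 146 and 61.2 CPM in cKO-mNLS and 12.7, 18.1 and 24.7 CPM in cKO-GFP, against 6.69, 3.91 and 5.25 CPM in NC-GFP (log2 change 3.15, SE 0.44, adjusted p = 0.0048). Tubb3, the neuronal beta tubulin, stood at 136, 183, 106 and 70.6 CPM in cKO-mNLS and 112, 115 and 85.8 CPM in cKO-GFP, against 35.7, 43.1 and 36.7 CPM in NC-GFP (log2 change 1.56, SE 0.256, adjusted p = 0.00795). The 3 genes graded differently, since Nrgn and Camk2b lay higher in cKO-mNLS than cKO-GFP (3.60, SE 0.538, adjusted p = 0.0026 and 2.69, SE 0.437, adjusted p = 0.00332) while Tubb3 did not pass that contrast (0.25, SE 0.26, adjusted p = 0.581). The Tubb3 call was lost on leaving out NC-GFP replicate 1, 2 or 3 (adjusted p then 0.052 to 0.0605). Slc17a7, the vesicular glutamate transporter VGLUT1 and the other member with no overlap, was chosen after its values were seen. It stood at 51.2, 157, 84.8 and 46.3 CPM in cKO-mNLS and 1.09, 6.86 and 5.04 CPM in cKO-GFP, against 0.209, 0.996 and 0 CPM in NC-GFP (adjusted p = 0.0117). No fold is given for it because NC-GFP was close to 0, and its call was lost on leaving out NC-GFP replicate 1 or 3 (adjusted p then 0.0585 and 0.0537).

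Receptor and release genes lay higher in cKO-mNLS, and in cKO-GFP their medians lay near 0. Of 34 glutamate and GABA receptor genes 14 rose and 3 fell, and of 30 presynaptic release genes 14 rose and 1 fell. Over all tested genes 3.16% rose and 1.85% fell. The median was 0.84 for receptors (1.95 in cKO-mNLS and -0.11 in cKO-GFP) and 1.31 for release genes (2.45 in cKO-mNLS and 0.18 in cKO-GFP). Summed over the receptor list, the level was 1261 to 2780.1 summed CPM in cKO-mNLS and 434 to 669 in cKO-GFP, against 897 to 949 in NC-GFP, with every cKO-GFP sum below every NC-GFP sum. Grin1, the obligate NMDA receptor subunit, stood at 48.9, 117, 83.6 and 35.8 CPM in cKO-mNLS and 2.32, 7.38 and 4.88 CPM in cKO-GFP, against 1.21, 1.95 and 0.282 CPM in NC-GFP (log2 change 3.96, SE 0.612, adjusted p = 0.00702). Grm2, a metabotropic glutamate receptor, had 0.276 to 30.1 CPM over the 7 TDP-43cKO libraries (median 5.04), against 0.0836, 0 and 0 CPM in NC-GFP (adjusted p = 0.00606), and its NC-GFP level rests on 1 library. The receptor genes that fell were Gabrg1, Gabrb1 and Grm3, of which Gabrb1 overlapped between the genotypes. The Gabrg1 call was lost on leaving out NC-GFP replicate 2 or 3 (adjusted p then 0.0658 and 0.0833), the Gabrb1 call on leaving out cKO-GFP replicate 3 or NC-GFP replicate 1, 2 or 3 (adjusted p then 0.0629 to 0.115) and the Grm3 call on leaving out cKO-mNLS replicate 1, cKO-GFP replicate 1, 2 or 3 or NC-GFP replicate 1, 2 or 3 (adjusted p then 0.0544 to 0.149). Bsn, an active zone scaffold, stood at 129, 351, 269 and 118 CPM in cKO-mNLS and 17.4, 22 and 20.9 CPM in cKO-GFP, against 13, 14.5 and 14 CPM in NC-GFP (log2 change 2.25, SE 0.339, adjusted p = 0.0063). Vamp1, a vesicle fusion protein, fell, at 11.8 to 18.5 CPM over the 7 TDP-43cKO libraries (median 16.1), against 23.1, 20.4 and 24.6 CPM in NC-GFP (log2 change -0.57, SE 0.145, adjusted p = 0.0449), a call lost on leaving out cKO-mNLS replicate 2, 3 or 4, cKO-GFP replicate 1 or 3 or NC-GFP replicate 1, 2 or 3 (adjusted p then 0.0568 to 0.233). The 14 receptor genes that rose became 6, 5 and 4 without NC-GFP replicate 1, 2 and 3 and 8 without cKO-GFP replicate 3. The 14 presynaptic ones became 6, 2 and 1 without NC-GFP replicate 1, 2 and 3 and 7 without cKO-GFP replicate 3. 

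The higher genes of smallest p over the table included Nsg2. Nsg2, an endosomal protein of neurons, stood at 89.8, 93.5, 63.7 and 56.8 CPM in cKO-mNLS and 12.9, 20.8 and 14.4 CPM in cKO-GFP, against 8.94, 7.74 and 6.55 CPM in NC-GFP (log2 change 2.17, SE 0.23, adjusted p = 0.00176). Nrg3, a neuregulin, stood at 10.7, 31.4, 30.9 and 11.9 CPM in cKO-mNLS and 0.562, 0.878 and 1.42 CPM in cKO-GFP, against 0.0418, 0.115 and 0.0565 CPM in NC-GFP (adjusted p = 0.00213). Plppr4, a membrane protein of glutamatergic synapses, had 3.8 to 113 CPM over the 7 TDP-43cKO libraries (median 61.7), against 3.26, 1.92 and 2.88 CPM in NC-GFP (log2 change 3.49, SE 0.436, adjusted p = 0.00357). In each of them every cKO-mNLS library lay above every cKO-GFP library, and every cKO-GFP library above every NC-GFP library. Brinp1 had 1.9 to 49.4 CPM over the 7 TDP-43cKO libraries (median 21.4), against 1.13, 0.192 and 0.791 CPM in NC-GFP (log2 change 4.04, SE 0.525, adjusted p = 0.00357). Dlgap2, a scaffold of the postsynaptic density, had 0.703 to 34.8 CPM over the 7 TDP-43cKO libraries (median 11.3), against 0.292, 0.0766 and 0.226 CPM in NC-GFP (adjusted p = 0.00357). No fold is given for Nrg3 and Dlgap2 because NC-GFP was close to 0. Hpcal4, a neuronal calcium sensor, stood at 41.1, 81.6, 36.9 and 30.8 CPM in cKO-mNLS and 1.86, 3.31 and 3.55 CPM in cKO-GFP, against 0.669, 1.23 and 1.81 CPM in NC-GFP (log2 change 3.27, SE 0.429, adjusted p = 0.00366) and lay higher in cKO-mNLS than cKO-GFP (4.03, SE 0.44, adjusted p = 0.00143). Mapk8ip2, a scaffold of neuronal JNK signalling, had 5.36 to 58.2 CPM over the 7 TDP-43cKO libraries (median 23.7), against 5.01, 4.75 and 3.05 CPM in NC-GFP (log2 change 1.80, SE 0.288, adjusted p = 0.00702), a call lost on leaving out NC-GFP replicate 3 (adjusted p then 0.0537). Mir124-2hg, a host transcript of the neuronal miR-124, fell, at 7.41, 13.2, 13.8 and 10.4 CPM in cKO-mNLS and 4.99, 4.07 and 3.86 CPM in cKO-GFP, against 17.1, 16.5 and 16.5 CPM in NC-GFP (log2 change -1.26, SE 0.206, adjusted p = 0.00737). Its cKO-mNLS libraries lay nearer to NC-GFP (1.38, SE 0.248, adjusted p = 0.00473 for cKO-mNLS over cKO-GFP), and its call was lost on leaving out NC-GFP replicate 2 or 3 (adjusted p then 0.0508 and 0.0528). Egr3 and Nr4a2, immediate early genes, rose in the genotype contrast (1.53, adjusted p = 0.0125 and 2.37, adjusted p = 0.0378). The Egr3 call was lost on leaving out NC-GFP replicate 1, 2 or 3 (adjusted p then 0.0537 to 0.0576) and the Nr4a2 call on leaving out cKO-mNLS replicate 1, cKO-GFP replicate 2 or 3 or NC-GFP replicate 1, 2 or 3 (adjusted p then 0.0604 to 0.175). In the fit with the 7 TDP-43cKO libraries as 1 group, every call named in this paragraph was lost (adjusted p then 0.0577 to 0.249). With voom the calls of Nrg3 and Nr4a2 were lost (adjusted p then 0.0506 and 0.0714).

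Markers of choroid plexus and ependymal cells were higher as well. Of 10 such markers 6 rose, 2 of them with no overlap, with a median of 2.79 (3.81 in cKO-mNLS and 1.82 in cKO-GFP). Of all tested genes 3.16% rose, and 1.58% rose with no overlap. Summed over the list, the level was 10743, 5334, 4431 and 6468 summed CPM in cKO-mNLS and 552, 2520.5 and 1521 CPM in cKO-GFP, against 575, 338 and 252 CPM in NC-GFP. The genotypes overlapped, since cKO-GFP replicate 1 lay below NC-GFP replicate 1. Folr1, the folate receptor of the choroid plexus, stood at 93.5, 36.9, 37.2 and 57.5 CPM in cKO-mNLS and 4.96, 16.2 and 12.4 CPM in cKO-GFP, against 3.76, 1.49 and 2.43 CPM in NC-GFP (log2 change 3.29, SE 0.49, adjusted p = 0.00597). Kcnj13, a potassium channel of the same epithelium, stood at 80.4, 31, 43.4 and 42.9 CPM in cKO-mNLS and 4.29, 18.5 and 10.7 CPM in cKO-GFP, against 3.93, 1.26 and 1.81 CPM in NC-GFP (log2 change 3.32, SE 0.547, adjusted p = 0.00869), a call lost on leaving out NC-GFP replicate 2 or 3 (adjusted p then 0.0577 and 0.064). Car12, a carbonic anhydrase, stood at 149, 64.6, 78.7 and 75.4 CPM in cKO-mNLS and 6.61, 24.6 and 13 CPM in cKO-GFP, against 3.84, 2.6 and 3.22 CPM in NC-GFP (log2 change 3.51, SE 0.446, adjusted p = 0.00357). Krt18, an epithelial keratin (log2 change 3.69, SE 0.487, adjusted p = 0.00357), Lbp, which binds lipopolysaccharide (log2 change 2.98, SE 0.381, adjusted p = 0.00357), and Myo5b, a motor of epithelial vesicles (log2 change 4.18, SE 0.443, adjusted p = 0.00176), also ranked among the higher genes of smallest p. All of these lay higher in cKO-mNLS than cKO-GFP. The 6 higher calls of the list became 1 without NC-GFP replicate 2, 1 without NC-GFP replicate 3 and 3 without cKO-GFP replicate 3. The number with no overlap was 6 without cKO-GFP replicate 1 and 4 without NC-GFP replicate 1. In the fit with the 7 TDP-43cKO libraries as 1 group, every call named in this paragraph was lost (adjusted p then 0.0558 to 0.111). The part of choroid plexus cells in the differences of other genes was not tested.

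**Figure D4:**
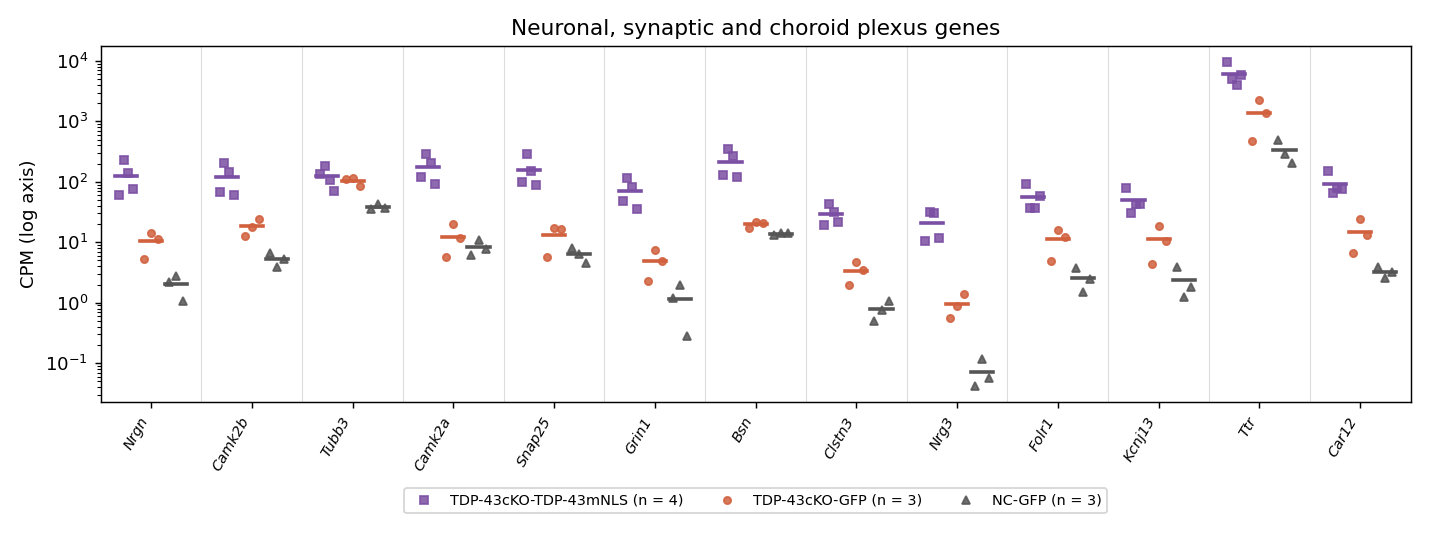
CPM (log axis) of neuronal genes and, at the right, of choroid plexus and epithelial genes in each library, with squares for cKO-mNLS (n = 4), circles for cKO-GFP (n = 3), triangles for NC-GFP (n = 3) and bars for group means. The cKO-mNLS points lie above the cKO-GFP points in most genes, and the lowest cKO-GFP point often lies close to the NC-GFP points.

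Of 16 dentate granule neuron markers 4 rose, with a median of 0.92 (2.61 in cKO-mNLS and 0.01 in cKO-GFP). For this and the next lists, 3.16% of all tested genes rose and 1.85% fell. C1ql3, a secreted C1q-like synaptic protein, stood at 15.8, 45.5, 41.4 and 13.7 CPM in cKO-mNLS and 2.6, 3.03 and 3.43 CPM in cKO-GFP, against 1.42, 2.14 and 2.2 CPM in NC-GFP (log2 change 2.29, SE 0.425, adjusted p = 0.0135), a call lost on leaving out NC-GFP replicate 1, 2 or 3 (adjusted p then 0.0672 to 0.0739). Prox1, the defining transcription factor of granule neurons, did not pass, at 105 to 308 CPM over the 7 TDP-43cKO libraries (median 192), against 201, 175 and 217 CPM in NC-GFP (log2 change -0.10, SE 0.24, adjusted p = 0.872), and was chosen after its values were seen. The 4 calls became 1, 1 and 0 without NC-GFP replicate 1, 2 and 3. Tubb2b and Sox2, which mark immature cells, fell (-0.77, adjusted p = 0.0282 and -0.96, adjusted p = 0.03). The Tubb2b call was lost on leaving out cKO-GFP replicate 1 or 3 or NC-GFP replicate 1, 2 or 3 (adjusted p then 0.0532 to 0.165) and the Sox2 call on leaving out NC-GFP replicate 1, 2 or 3 (adjusted p then 0.104 to 0.135). Of 32 genes for TDP-43 and other RNA-binding proteins 3 rose, the neuronal splicing factors Rbfox1, Rbfox3 and Celf4, all with overlapping ranges, and these 3 calls became 1, 1 and 0 without NC-GFP replicate 1, 2 and 3. Of 21 genes with known cryptic exons in TDP-43-depleted mouse cells 2 rose, Unc13a and Sptbn4, and none fell in edgeR, DESeq2 or voom, nor at an unadjusted p under 0.05. Both overlapped between the genotypes, and without any 1 of the NC-GFP libraries or without cKO-GFP replicate 3 there were 0 higher calls. The Sptbn4 call was lost on leaving out cKO-GFP replicate 3 or NC-GFP replicate 1, 2 or 3 (adjusted p then 0.0583 to 0.12). Unc13a, which primes synaptic vesicles, was chosen after its values were seen and stood at 40.8, 95.7, 71.4 and 39.4 CPM in cKO-mNLS and 7.2, 14.9 and 10.2 CPM in cKO-GFP, against 8.44, 10.2 and 8.76 CPM in NC-GFP (log2 change 1.50, SE 0.319, adjusted p = 0.0235). Its cKO-GFP range overlapped NC-GFP, and its call was lost on leaving out cKO-GFP replicate 3 or NC-GFP replicate 1, 2 or 3 (adjusted p then 0.0528 to 0.121). Gene counts do not show exons, and cryptic exons were not measured.

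The remaining lists held few calls, set against 3.16% of all tested genes that rose and 1.85% that fell. Of 18 endothelial and mural markers edgeR called 0, with 1 higher and 2 lower at an unadjusted p under 0.05, while DESeq2 called 1 higher and 1 lower and voom 1 lower. Of 20 cell division genes edgeR, DESeq2 and voom called 0, with 2 higher at an unadjusted p under 0.05 and a median of 0.04 (-0.46 in cKO-mNLS and 0.79 in cKO-GFP). Of 11 blood cell markers 1 fell, Slc4a1, the anion exchanger of red cells, at 0, 0.0468, 0 and 0 CPM in cKO-mNLS and 7.06, 2.75 and 2.17 CPM in cKO-GFP, against 1, 2.18 and 1.53 CPM in NC-GFP (adjusted p = 0.0358). Its cKO-mNLS libraries lay at or near 0 and its cKO-GFP libraries overlapped NC-GFP, and the list median was -6.23 in cKO-mNLS and 1.66 in cKO-GFP. The Slc4a1 call was lost on leaving out cKO-mNLS replicate 1, 3 or 4, cKO-GFP replicate 2 or 3 or NC-GFP replicate 1, 2 or 3 (adjusted p then 0.0544 to 0.153). Of 13 inhibitory neuron markers Cck, a neuropeptide, rose, and 2 fell, among them Dlx1, a homeobox gene of interneurons. The Cck call was lost on leaving out cKO-GFP replicate 2 or 3 or NC-GFP replicate 2 or 3 (adjusted p then 0.0523 to 0.112) and the Dlx1 call on leaving out cKO-mNLS replicate 1, 2 or 3, cKO-GFP replicate 2 or 3 or NC-GFP replicate 1, 2 or 3 (adjusted p then 0.0502 to 0.2). Of 14 immature neuron markers Neurod2, a neuronal transcription factor, rose, a call lost on leaving out cKO-GFP replicate 3 or NC-GFP replicate 1, 2 or 3 (adjusted p then 0.0532 to 0.122), and Tubb2b and Sox2 were the 2 that fell. Of 24 immediate early genes Egr3, Egr4 and Nr4a2 rose and 0 fell in edgeR (1 lower at an unadjusted p under 0.05, 0 called by DESeq2 and 1 by voom), and the Egr4 call was lost on leaving out cKO-mNLS replicate 2, 3 or 4, cKO-GFP replicate 2 or 3 or NC-GFP replicate 1, 2 or 3 (adjusted p then 0.0648 to 0.146). Of 29 integrated stress and p53 response genes Slc7a11 fell and 0 rose in edgeR, with 6 higher at an unadjusted p under 0.05 and 3 called higher by DESeq2 and 3 by voom. Slc4a1, Cck, Dlx1, Neurod2 and Egr4 were chosen after their values were seen.

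Metabolic genes moved by small amounts. For comparison, 3.16% of all tested genes rose and 1.85% fell. Of 22 cholesterol synthesis genes 4 fell, all with no overlap, with a median of -0.34. These became 0 without any 1 of the NC-GFP libraries, 1 without cKO-GFP replicate 3 and 2 without cKO-GFP replicate 2 or cKO-mNLS replicate 1. Msmo1, a sterol demethylation enzyme, had 29.8 to 74.7 CPM over the 7 TDP-43cKO libraries (median 48.7), against 89.9, 103 and 109 CPM in NC-GFP (log2 change -1.02, SE 0.208, adjusted p = 0.0195). Dhcr7, which makes cholesterol from its last precursor, had 16.5 to 25.9 CPM over the 7 TDP-43cKO libraries (median 21.5), against 29.1, 35.3 and 34.9 CPM in NC-GFP (log2 change -0.64, SE 0.142, adjusted p = 0.0269). Fdft1, squalene synthase, had 29.6 to 50.8 CPM over the 7 TDP-43cKO libraries (median 42.5), against 60.5, 59.8 and 71 CPM in NC-GFP (log2 change -0.66, SE 0.163, adjusted p = 0.0396). The Msmo1 call was lost on leaving out NC-GFP replicate 1, 2 or 3 (adjusted p then 0.0558 to 0.112), the Dhcr7 call on leaving out cKO-GFP replicate 3 or NC-GFP replicate 1, 2 or 3 (adjusted p then 0.0552 to 0.145) and the Fdft1 call on leaving out cKO-mNLS replicate 1, cKO-GFP replicate 2 or 3 or NC-GFP replicate 1, 2 or 3 (adjusted p then 0.0541 to 0.217). Of 34 nuclear genes of oxidative phosphorylation 4 rose in edgeR, and the fold change was above 0 in all 34, with a median of 0.27. In 12 of them all TDP-43cKO libraries lay above all NC-GFP libraries, as in 3.49% of all tested genes. At an unadjusted p under 0.05, 14 were higher, and DESeq2 and voom called 9 each. The 4 edgeR calls became 0 without any 1 of the NC-GFP libraries or cKO-GFP replicate 3. They became 2 without cKO-GFP replicate 1 or cKO-mNLS replicate 2. Cox6c, a subunit of cytochrome oxidase, had 83.5 to 136 CPM over the 7 TDP-43cKO libraries (median 111), against 77, 74.2 and 73.5 CPM in NC-GFP (log2 change 0.54, SE 0.115, adjusted p = 0.0225). Atp5h, a subunit of the ATP synthase, had 83.9 to 102 CPM over the 7 TDP-43cKO libraries (median 91.4), against 68.1, 63.6 and 63.4 CPM in NC-GFP (log2 change 0.49, SE 0.107, adjusted p = 0.0262), and Ndufv2, a subunit of complex I, had 33.6 to 44.1 CPM over the 7 TDP-43cKO libraries (median 41.3), against 29.5, 27.5 and 24.1 CPM in NC-GFP (log2 change 0.51, SE 0.115, adjusted p = 0.0299). The Cox6c call was lost on leaving out cKO-GFP replicate 3 or NC-GFP replicate 1, 2 or 3 (adjusted p then 0.0514 to 0.126), the Atp5h call on leaving out cKO-GFP replicate 3 or NC-GFP replicate 1, 2 or 3 (adjusted p then 0.0511 to 0.148) and the Ndufv2 call on leaving out cKO-mNLS replicate 2, cKO-GFP replicate 1 or 3 or NC-GFP replicate 1, 2 or 3 (adjusted p then 0.0528 to 0.19). Of 48 cytosolic ribosomal protein genes 0 passed an adjusted p of 0.05 in edgeR, 0 had an unadjusted p under 0.05, and DESeq2 and voom called 0, whereas between the vectors 46 had an unadjusted p under 0.05, with cKO-mNLS as the lower group in all 46.

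The smallest adjusted p among the named genes belonged to mt-Nd3, a complex I subunit encoded by mitochondrial DNA (chrM:9459-9806). It stood at 34.3, 20.6, 26.6 and 25 CPM in cKO-mNLS and 19.8, 24.1 and 17.9 CPM in cKO-GFP, against 136, 113 and 103 CPM in NC-GFP (log2 change -2.33, SE 0.157, adjusted p = 6.24e-05). It was the only 1 of the 13 mitochondrially encoded genes that passed. Gm28438, an unprocessed pseudogene on chromosome 1 (chr1:24612775-24613119, minus strand), was chosen after its values were seen and moved the other way, at 181, 157, 198 and 138 CPM in cKO-mNLS and 106, 97.9 and 98.7 CPM in cKO-GFP, against 19.9, 19.7 and 11 CPM in NC-GFP (log2 change 2.95, SE 0.214, adjusted p = 9.62e-05). Both genes separated the genotypes by a wide gap, in opposite directions. Their GENCODE vM21 transcripts are 348 and 345 bases long, and over the 345 bases compared they were identical at all but 1 (99.7%). The difference is T3C, with the mt-Nd3 base first and positions counted from 1 at the 5′ end of the transcript. The first 60 bases are shown because they hold the difference, which is in capitals, from chrM:9459-9518 (plus strand) and chr1:24613060-24613119 (minus strand) of GRCm38.
mt-Nd3: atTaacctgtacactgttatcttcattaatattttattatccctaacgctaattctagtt
Gm28438: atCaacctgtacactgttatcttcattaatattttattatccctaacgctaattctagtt
The sum of both genes was 216, 177, 225 and 162 CPM in cKO-mNLS and 125, 122 and 117 CPM in cKO-GFP, against 156, 133 and 114 CPM in NC-GFP. Every cKO-mNLS sum lay above every NC-GFP sum, while the cKO-GFP sums overlapped NC-GFP. An exact permutation test of 7 against 3 libraries, two-sided, gave p = 0.333, and it takes the 2 vector groups as 1. The neighbouring mitochondrial pseudogenes Gm28437, Gm10925, Gm28661 and Gm29216 did not pass, with log2 fold changes of 0.00, 0.03, -0.04 and -0.13 and adjusted p = 0.998, 0.954, 0.923 and 0.722. Reads that do not cover position 3 are the same in both genes over the compared bases, and how the counting assigned them was not tested, so a change in either gene taken alone is uncertain.

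**Figure D5:**
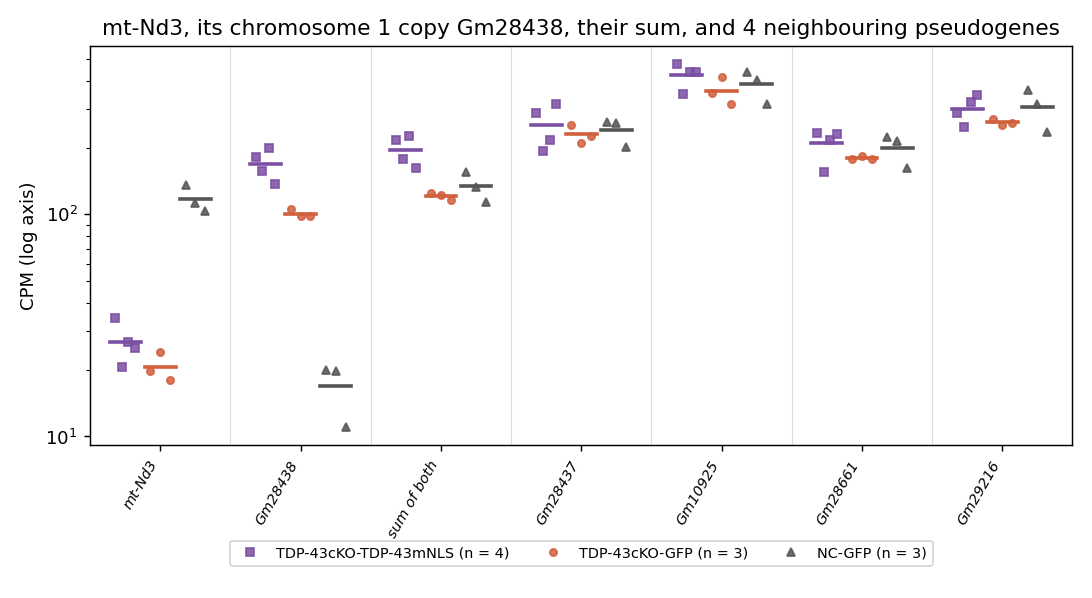
CPM (log axis) of mt-Nd3, of Gm28438, of their sum and of neighbouring mitochondrial pseudogenes in each library, with squares for cKO-mNLS (n = 4), circles for cKO-GFP (n = 3), triangles for NC-GFP (n = 3) and bars for group means. The TDP-43cKO points lie below NC-GFP in mt-Nd3 and above it in Gm28438. In the sum the cKO-GFP points overlap with NC-GFP and the cKO-mNLS points lie above it.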

How the data were processed

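Members and gene lists were chosen with earlier results of these data known, and the lists were drawn from memory (19 genes are in more than 1 list). Per the file headers, the deposited table held each library's estimated count and TPM for 55487 genes. The authors' estimated counts were not normalized, and 5.84% were not whole, so they were rounded. The authors' TPM values, scaled by transcript length, entered no test. The submitters' processing notes name DRAGEN and GRCm38/mm10. Version, annotation, counting rules and use of strand: not given in the sources used here. The group-wise low-count filter of edgeR 4.0.16 (R 4.3.3) left 20379 genes with at least 99.83% of the counts of each library. The quasi-likelihood test was fitted with TMM scaling and robust estimation, with 7 residual degrees of freedom and a common biological coefficient of variation of 0.406. A gene was called at a Benjamini-Hochberg adjusted p under 0.05, and CPM used TMM-scaled totals.

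Named genes were Tardbp, the 12 higher and the 12 lower genes of smallest p, and genes added by list and by vector contrast. These 24 were called, changed by at least 1 on the log2 scale, had no overlap and averaged at least 5 CPM, and were no predicted genes, pseudogenes or ribosomal copies. Up to 3 members of smallest p came from each of 31 lists, if called with no overlap. Some genes that this rule names are not reported here. Other members named beside small counts were chosen after their values were seen. The vector contrast added up to 4 called genes without overlap that lay further from NC-GFP in cKO-mNLS, and 4 that lay nearer. Other settings were the size factors of DESeq2, the DESeq2 1.42.0 Wald test, voom with quality weights (limma 3.58.1), testing every gene with counts, requiring 1 CPM or more in 6 or more libraries, a replicate block, the 7 TDP-43cKO libraries as 1 group, no mitochondrial genes, and each library left out. In counts simulated from these libraries (19710 genes), edgeR found 45% of the genes simulated at a log2 change of 1 and 96% at 2, with 5.37% false calls. The changed genes averaged at least 5 CPM and moved alike in both TDP-43cKO groups. No difference between the vectors was simulated, so these rates do not cover genes that differ between them. DESeq2 found 70% and 99% with 27.2% false calls, and voom 45% and 94% with 7.95%.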

Additional observations from a re-analysis of the deposited data

Results flagged for a closer look

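In 6 of the 64 named genes, 1 library of cKO-mNLS stood apart from the other 3, with a gap to its nearest neighbour above the critical share of the group's range (Dixon's test, 0.829 for 4 samples). Chance flags about 1 in 20 groups. The libraries were high in Car12 (149 CPM, replicate 1), Krt18 (30.2 CPM, replicate 1), Vamp1 (18.5 CPM, replicate 1), Slitrk2 (31.3 CPM, replicate 3) and Slitrk4 (18.8 CPM, replicate 2), and low in Mfge8 (64.6 CPM, replicate 2). Replicate 1 held 3 of the 6.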

How the results depend on the processing

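Against 644 higher and 376 lower calls, 322 and 271 of them without overlap, the DESeq2 Wald test gave 1422 and 774, and 523 and 462. Voom called 879 lower genes, 494 without overlap. The share of calls that were higher was 63.1%, against 43.0% in voom and 38.1% in the fit with the 7 TDP-43cKO libraries as 1 group, which called 24 higher and 39 lower genes, all without overlap. With libraries left out in turn, higher calls ranged from 81 to 693, higher without overlap from 76 to 548, lower from 64 to 412 and lower without overlap from 64 to 322. The lowest numbers came without NC-GFP replicate 2 or 3. Without the low-count filter the median of all genes was 0.12. The calls were kept in every setting for 17 higher and 28 lower genes, all without overlap. Of the 63 named genes that were called, 38 were kept with each library left out and 13 in every setting, and none changed direction. In the simulation, which held no difference between the vectors, 45% of genes at a log2 change of 1 were recovered. Recovery of genes that differ between the vectors, or of genes of lower level, was not tested.

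Correlations of same-numbered deviations lay between -0.145 and 0.059, and those of libraries with unlike numbers between -0.159 and 0.166. The replicate numbers thus gave no sign of pairing, but deviations from means of so few libraries cannot exclude a shared batch. With the replicate block, 475 genes were called higher, 206 of them without overlap, and 203 lower, 154 without overlap.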

Other observations

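The 17 higher genes kept in every setting were 8 of the interferon-gamma or complement lists (Serping1, Gbp3, Gbp6, Gbp10, Tgtp1, Batf2, Ifi47 and Cd59a) and Il12rb1, a cytokine receptor chain, Gm28438, Gm12185, Gm4951, Gm12250, Ociad2, Tmem140, Tnr and Sema5a. The annotated spans of Tgtp1 and Gm12185 overlap on the same strand, so they can share reads. The 28 lower genes included the astrocyte genes Gja1, Gjb6, F3, Gpc5 and Slc6a11 and the signalling genes Ednrb, Gpr37l1 and Wnt7a. They also included Mfge8, Slc1a4, Fam20a and Hapln1, which encodes a link protein of the hyaluronan matrix. Each of these genes was chosen after its values were seen.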
